A study of Mus musculus with 16 samples.

Results

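Long noncoding RNAs that carry small nucleolar RNAs (snoRNAs) in their introns were examined in mouse motoneurons, +/+ and Hnrnpr-/-, whose axons were sequenced apart from their cell bodies and dendrites. The 8 host RNAs are Gas5, Snhg1, Snhg3, Snhg5, Snhg6, Snhg8, Snhg12 and Snhg15, taken by name from a count table of 46320 genes, and they were compared with ribosomal protein mRNAs, of which the table holds 105. The motoneurons were enriched by p75NTR panning from lumbar spinal cord of embryonic day 13 mice and grown in microfluidic chambers, which let axons but not cell bodies pass into a separate compartment. Both compartments received 5 ng/ml CNTF and the axonal compartment alone also 20 ng/ml BDNF, in both genotypes. The Hnrnpr-/- mice lack exons 1 to 5 of Hnrnpr through CRISPR/Cas9 deletion in every cell, and each of the 4 groups, given by genotype and compartment, has 4 libraries that the study describes as biological replicates.

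A snoRNA host gene is transcribed and spliced like an mRNA gene, the snoRNAs are trimmed out of the excised introns, and they guide chemical modification or cleavage of ribosomal RNA. The spliced exons that remain hold no long conserved reading frame, reach the cytoplasm, and in the case of Gas5 are known to be degraded when ribosomes run over them. Host RNAs and ribosomal protein mRNAs are both known for a terminal oligopyrimidine (TOP) start, a C at the cap followed by an unbroken row of pyrimidines, through which mTORC1 and the cap-binding protein Larp1 control translation and stability.

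The starts of the 8 host RNAs are shown because a TOP start is what they are known to hold. Each line holds 10 bases before and 20 bases from a transcript start in GENCODE on GRCm39, on the strand of the gene, and capitals mark the run of pyrimidines that begins with C exactly at that start.
Gas5, chr1:160862726-160862755, plus strand: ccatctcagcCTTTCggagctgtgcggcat
Snhg1, chr19:8700841-8700870, plus strand: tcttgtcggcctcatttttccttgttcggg
Snhg3, chr4:132080925-132080954, minus strand: gcgggtctgtCTCTCTaggcgtcgctctct
Snhg5, chr9:88404922-88404951, minus strand: cgggctcgttCTTTTacgacggagcctaag
Snhg6, chr1:10014324-10014353, minus strand: gggccacttcCTTTCTCggcagcgccgtag
Snhg8, chr3:123301966-123301995, minus strand: gttcagaagtCTCTTTggctgcgatccgcc
Snhg12, chr4:132035977-132036006, plus strand: cgttctcagtCCTTTCTCgcttcatccgcg
Snhg15, chr11:6478438-6478467, minus strand: atttttttttCCTTTTacgagagaacgttc
A ribosomal protein mRNA with a large and a ribosomal protein mRNA with a small difference between compartments are set beside them.
Rps19, chr7:24584048-24584077, plus strand: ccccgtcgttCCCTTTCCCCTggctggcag
Rpl4, chr9:64080646-64080675, plus strand: acaagtctttCCTTTTCCTgtgggagcagc

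Where any annotated start had a TOP run, a start with one was chosen for display, so the starts shown need not be the most used. Run lengths in the host RNAs were 5 bases in Gas5 and Snhg5, 6 in Snhg3, Snhg8 and Snhg15, 7 in Snhg6 and 8 in Snhg12, against 11 in Rps19 and 9 in Rpl4. Of the other ribosomal protein starts examined, that of Rps27l and that of Rpl35 had a run of 5, that of Rpl22 a run of 8 and that of Rpl15 a run of 10. In the count table Rpl35 begins 6 bases before the start examined and Rpl15 3 bases before it. From there their runs were 11 and 13, so the length depends on the start chosen. The start shown for Snhg3 belongs to 1 of 5 annotated transcripts, that of Snhg5 to 12 of 43, that of Snhg8 to 1 of 8, that of Snhg15 to 1 of 32, that of Rps19 to 2 of 11 and that of Rpl4 to 4 of 45, whereas the Gas5 start is used by 80 of 229. An annotated start with C and 4 or more further pyrimidines was searched for on the strand of the gene. At least 1 was found for 7 of the 8 host RNAs, which is 87.5%. The same held for 69 of 105 ribosomal protein genes (65.7%), all 69 being among the 93 that were tested. Of the 18143 tested genes with an annotated start, 21.3% had at least 1. Snhg1 held none, its most used start opening with a run of 3 pyrimidines. Host RNAs have many annotated starts, a median of 20.5 against 8 for ribosomal protein genes and 7 for the tested genes, which gives them more chances of a match. At the most used start alone the shares were 37.5% of the host RNAs, 8.57% of the ribosomal protein genes and 3.75% of the tested genes with an annotated start, and within 10 bases of it on either side they were 75%, 39.0% and 31.7%. Annotated starts were not measured in these libraries, so which start is used in motoneurons is not known here.

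The host genes are compact. Their combined exons span 407 bases in Snhg6 to 1011 bases in Snhg5, with a median of 599, compared with 780 for ribosomal protein genes and 1605 for all genes in the table. Together they enclose 27 snoRNA rows of the table, 8 each in Gas5 and Snhg1, 4 in Snhg12, 2 each in Snhg3 and Snhg5 and 1 in each of the others. Gas5, on chromosome 1 from 160862171 to 160866109, also overlaps Zbtb37 on the opposite strand, and reads of these genes cannot be told apart where they overlap because the library kit does not mark strand. Snhg8, on chromosome 3 from 123301201 to 123301985, has combined exons that cover its whole span, so Snora24 lies inside its counted part.

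Total counts per library ranged from 22024923 to 34864151, and the Hnrnpr RNA itself was at 0.861 CPM in Hnrnpr-/- somatodendritic and 0.876 CPM in Hnrnpr-/- axonal libraries against 204 and 212 CPM in +/+, where CPM is the read count scaled to library size with TMM factors. Deposited counts of the host RNAs ranged from 14 to 98.5 reads per library for Snhg8 and 19 to 146.5 for Snhg12 up to 290.5 to 2806 for Gas5. The counts were made with a reverse-stranded setting although the kit does not mark strand, and what share of reads this left out is not known here. Library +/+ axonal replicate 2 stood apart, with 23490 genes counted against 24666 to 26939 in the other libraries. Summed markers of astrocytes or radial glia lay at 980 to 1378 CPM in +/+ somatodendritic and 2005 to 4813 CPM in +/+ axonal libraries, whereas summed motoneuron markers lay at 13.05 to 29.7 and 3.83 to 16.4 CPM, with Mnx1 at 0 counts in both of these groups. Thus the defining markers of the labelled cell type were below those of glia in these libraries. Of 5 motoneuron markers tested Chat and Slc18a3 fell in +/+ axons (log2FC of -5.50 and -3.88, where log2FC is the log2 fold change between groups). Chat went from 0.899 to 0.0162 CPM and Slc18a3 from 8.05 to 0.543 CPM, so their axonal levels lay near the floor of the counts. Of the 7 astrocyte or radial glia markers, 5 rose in +/+ and 3 in Hnrnpr-/- axonal libraries, led by Fabp7 at 2.10 and Sox2 at 2.10, with Slc1a3 at 0.78 and Aldh1l1 at 0.88 the smallest increases, and 3 rose in +/+ without axonal replicate 2, where Slc1a3 (0.61) and Aldh1l1 (0.63) did not pass. Without that library 3 motoneuron markers fell, Isl1 (-3.03) being the third, and 1 fibroblast marker rose, Col1a2 (2.39), both named after their values were seen. Among the other lists 1 of 6 oligodendroglia or Schwann markers rose in +/+ (Olig1, 1.55) and 1 fell (Mog, -5.09, from 0.681 to 0.0166 CPM). None of 6 fibroblast or meningeal and 1 of 7 microglia markers (Tmem119, 3.72) rose in +/+. Neither Olig1 (1.18) nor Slc1a3 (0.65) passed without +/+ axonal replicate 1. The part of these cells in the results below was not tested, and in bulk samples fewer cells of a type and less RNA per cell cannot be told apart. Somatodendritic cDNA was also made in a smaller reaction volume than axonal cDNA, somatodendritic libraries were amplified with fewer PCR cycles than axonal libraries, and BDNF was on the axonal side alone, all of which cannot be told apart from the compartment.

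To find out how the host RNAs are distributed, axonal were compared with somatodendritic libraries of the same genotype. Most of the host RNAs took a larger share of the counts in axons. In +/+ motoneurons 7 of 8 were higher in axons in edgeR's quasi-likelihood test at an adjusted p under 0.05, and none was lower, on a background of 57.5% of all 19964 tested genes called, with 30.1% higher and 27.4% lower, and of 62.2% with an unadjusted p under 0.05. In Hnrnpr-/- motoneurons 7 of 8 were again higher, on a background of 54.2% called and 27.5% higher. This fit did not pair the compartments by replicate number. With genotype and replicate number together as a block, 6 and 7 of 8 were higher, beside 5594 and 5289 of 19964 tested genes. With offsets that remove the trend of the counts with exon length, described further on, calls of higher fell to 2 of 8 in +/+ (Gas5 and Snhg15) and 0 of 8 in Hnrnpr-/-, and Snhg12 was called lower in both, on backgrounds in that fit of 28.7% of tested genes higher and 23.9% lower in +/+ and 25.9% and 23.1% in Hnrnpr-/-. Without the offsets or the block the exception was Snhg12 in both genotypes. Summed over the 8 RNAs, mean levels (± SD, n = 4) went from 41.4 ± 12.9 CPM in cell bodies and dendrites to 118 ± 34.96 CPM in axons of +/+ motoneurons, and from 38.5 ± 7.55 to 98.6 ± 11.2 CPM in Hnrnpr-/-. The compartments did not overlap in either genotype, the sums ranging from 32.2 to 60.4 against 75.3 to 149 CPM in +/+ and from 28.6 to 44.7 against 86.4 to 109 CPM in Hnrnpr-/-.

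**Figure D1:**
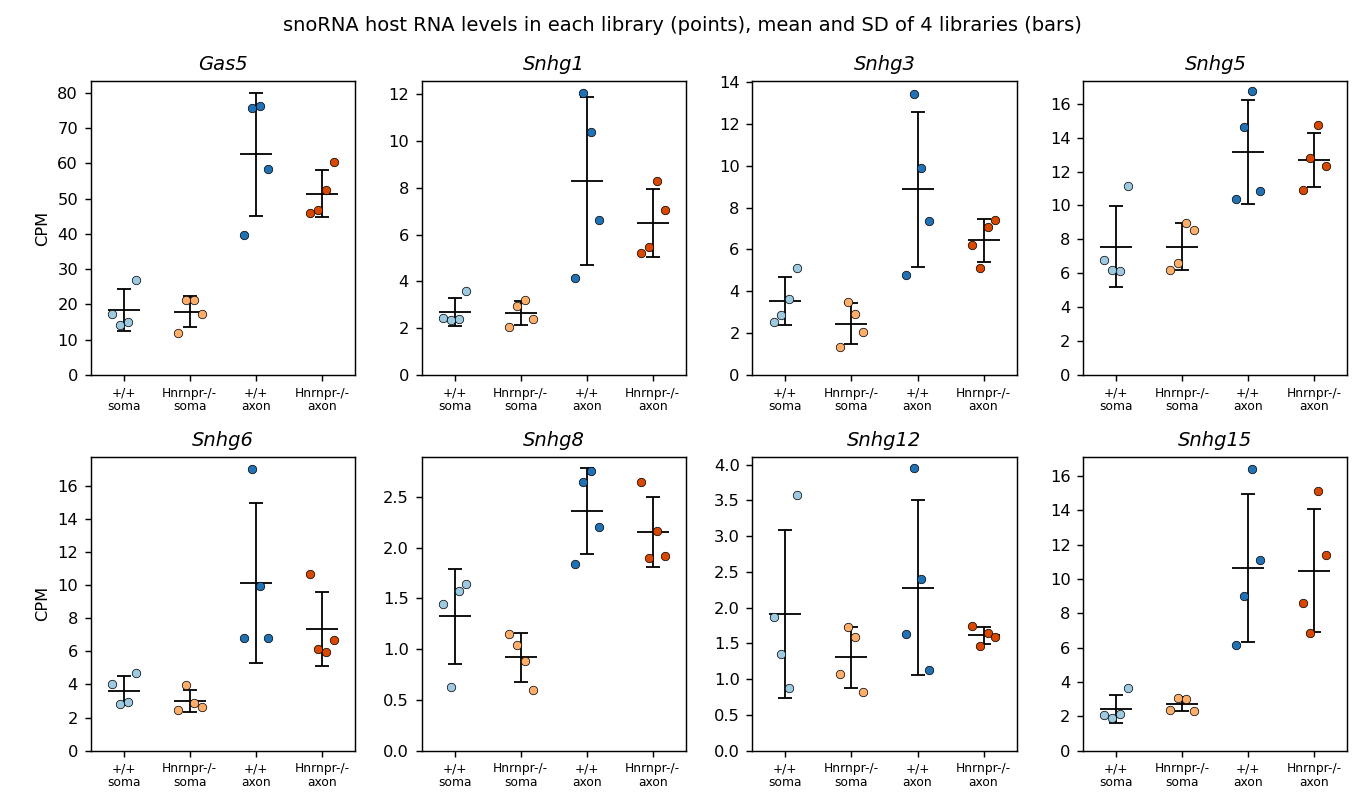
Levels of the 8 snoRNA host RNAs in CPM on a linear axis from 0, 1 panel per RNA, with 4 libraries (points), mean and SD (bars) for each of the 4 groups. Gas5 lies at 14.0 to 27.0 CPM in +/+ somatodendritic and 39.6 to 76.4 CPM in +/+ axonal libraries, and Snhg12 is the only RNA whose compartments overlap in both genotypes, while with offsets for exon length only Gas5 and Snhg15 of the 8 are called higher in +/+ axons and none in Hnrnpr-/-.

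Gas5, named for its rise in growth-arrested cells and host of box C/D snoRNAs, was the most abundant. It stood at 17.3, 14.0, 14.9 and 27.0 CPM in +/+ somatodendritic replicates 1 to 4 and at 39.6, 75.9, 76.4 and 58.3 CPM in +/+ axonal replicates 1 to 4. The lowest axonal library lay above the highest somatodendritic library. The log2FC was 1.77 (standard error, SE, 0.26, adjusted p = 0.00011), or 3.41-fold. In Hnrnpr-/- the somatodendritic libraries held 11.9, 21.1, 21.3 and 17.2 CPM and the axonal libraries 45.9, 46.7, 52.6 and 60.4 CPM, again without overlap, with a log2FC of 1.52 (SE 0.26, adjusted p = 0.000336).

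Snhg15 had the largest difference of the members. Its levels were 2.08, 1.89, 2.15 and 3.66 CPM in +/+ somatodendritic and 6.13, 8.98, 16.4 and 11.1 CPM in +/+ axonal libraries. The groups did not overlap, and axonal replicate 3 was the highest in both genotypes. The log2FC was 2.12 (SE 0.34, adjusted p = 0.000172) in +/+. In Hnrnpr-/- the values were 2.39, 3.07, 3.02 and 2.32 against 8.57, 6.86, 15.1 and 11.4 CPM, a log2FC of 1.96 (SE 0.33, adjusted p = 0.000342).

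Snhg1 and Snhg6 host box C/D snoRNAs, among them Snord22 and Snord87. Snhg1 was counted at 2.44, 2.34, 2.40 and 3.57 CPM in +/+ somatodendritic and 4.16, 12.1, 10.4 and 6.61 CPM in +/+ axonal libraries, with a log2FC of 1.63 (SE 0.32, adjusted p = 0.00068). Snhg6 was counted at 4.01, 2.84, 2.94 and 4.69 against 6.81, 17.0, 9.94 and 6.79 CPM, with a log2FC of 1.49 (SE 0.33, adjusted p = 0.00154). Neither RNA overlapped between compartments, and +/+ axonal replicate 2 was the highest for both. Without that library their log2FC values were 1.38 and 1.11, and both remained past the threshold. In Hnrnpr-/- the log2FC values were 1.29 for Snhg1 and 1.30 for Snhg6, from 2.06 to 3.18 and 2.47 to 3.98 CPM in somatodendritic libraries to 5.20 to 8.28 and 5.97 to 10.7 CPM in axonal libraries.

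Snhg3 hosts Snora73a and Snora73b, H/ACA snoRNAs needed for processing of the ribosomal RNA precursor. Its levels were 2.53, 2.88, 3.64 and 5.12 CPM in +/+ somatodendritic and 4.77, 13.4, 9.88 and 7.37 CPM in +/+ axonal libraries. Here the groups overlapped, since somatodendritic replicate 4 exceeded axonal replicate 1. The log2FC of 1.32 (SE 0.36, adjusted p = 0.00549) passed the threshold, as did 1.05 without +/+ axonal replicate 2. Hnrnpr-/- libraries did not overlap, at 1.32 to 3.51 against 5.09 to 7.39 CPM, with a log2FC of 1.39 (SE 0.36, adjusted p = 0.00474).

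Snhg5 and Snhg8 had smaller differences. Snhg5 stood at 6.76, 6.21, 6.13 and 11.1 CPM in +/+ somatodendritic and 10.4, 14.6, 16.8 and 10.9 CPM in +/+ axonal libraries, which overlap through somatodendritic replicate 4, and its log2FC was 0.80 (SE 0.24, adjusted p = 0.0101). Snhg8 stood at 1.45, 0.63, 1.57 and 1.64 against 1.84, 2.65, 2.76 and 2.20 CPM, without overlap, with a log2FC of 0.83 (SE 0.32, adjusted p = 0.0365). The Snhg8 call in +/+ did not hold without axonal replicate 2 (adjusted p = 0.0639), without axonal replicate 3 (0.0673), without somatodendritic replicate 2 (0.0822) or with genotype and replicate number together as a block (0.0605), while its log2FC stayed between 0.65 and 1.00 with any 1 library left out. In Hnrnpr-/- Snhg5 had 0.75 (SE 0.24, adjusted p = 0.0155) and Snhg8 had 1.23 (SE 0.33, adjusted p = 0.00559), and neither overlapped between compartments.

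Snhg12 hosts the H/ACA snoRNAs Snora16a, Snora44 and Snora61 and the box C/D snoRNA Snord99. It was found at 1.87, 1.35, 0.870 and 3.57 CPM in +/+ somatodendritic and 1.63, 3.95, 2.40 and 1.13 CPM in +/+ axonal libraries, and at 1.07, 1.73, 1.59 and 0.815 against 1.74, 1.46, 1.65 and 1.59 CPM in Hnrnpr-/-. Somatodendritic replicate 4 and axonal replicate 2 were the high libraries in +/+, and the compartments overlapped in both genotypes. The log2FC values were 0.26 (SE 0.44, adjusted p = 0.641) and 0.31 (SE 0.45, adjusted p = 0.582). In +/+ the estimate was -0.15 without axonal replicate 2 and 0.78 without somatodendritic replicate 4, and it passed the threshold in neither case.

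In +/+, 5 of the 8 RNAs had every axonal library above every somatodendritic library, on a background of 24.8% of tested genes, and in Hnrnpr-/- 7 of 8 did, on a background of 24.1%. All 8 were highest in somatodendritic replicate 4 of the +/+ libraries, where summed ribosomal protein mRNAs were also highest, at 4101 CPM against 3286 to 3805 CPM in the others. In +/+ axons 6 of 8 were lowest in replicate 1, and the highest library was replicate 2 for 4 and replicate 3 for the other 4. In Hnrnpr-/- axons no library was the highest for more than 3 of the 8, and replicate 1 was the highest for 3 and the lowest for 3.

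Per kilobase of exon, Gas5 was the highest RNA in each group, at 29.6 ± 9.63 CPM per kilobase (SD, n = 4) in +/+ somatodendritic, 101 ± 28.1 in +/+ axonal, 28.8 ± 7.09 in Hnrnpr-/- somatodendritic and 82.9 ± 10.8 in Hnrnpr-/- axonal libraries. It did not overlap the next RNA in any group. In +/+ axons the order was Gas5, Snhg6 (24.9 ± 11.9), Snhg3 (20.3 ± 8.46), Snhg15 (17.97 ± 7.31), Snhg1 (17.4 ± 7.52), Snhg5 (13.002 ± 3.03), Snhg12 (3.76 ± 2.03) and Snhg8 (3.01 ± 0.541). From Snhg6 to Snhg5 neighbours in this order overlapped, while Snhg5 lay above Snhg12 without overlap. In +/+ somatodendritic libraries all neighbours below Gas5 overlapped, from Snhg6 at 8.90 ± 2.19 to Snhg8 at 1.69 ± 0.598. Snhg15 took rank 6 there and rank 4 in axons.

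Ribosomal protein mRNAs were higher in axons nearly without exception, with 90 of 93 tested called higher and none lower in both genotypes. Their median log2FC was 1.72 in +/+ and 1.92 in Hnrnpr-/-, against 1.41 and 1.30 for the host RNAs and 0.07 and -0.0028 for all tested genes. In +/+ the quartiles were 1.52 and 1.97 for ribosomal protein mRNAs and 0.82 and 1.66 for the host RNAs, and the full ranges 0.21 to 3.70 and 0.26 to 2.12. In Hnrnpr-/- the quartiles were 1.66 and 2.14 against 1.11 and 1.42. Summed ribosomal protein mRNAs made up 0.302% to 0.397% of counts in +/+ somatodendritic and 0.850% to 1.55% in +/+ axonal libraries. Among those with a mean of at least 50 CPM in +/+, the largest differences in +/+ were those of Rps27l, a paralogue of Rps27 (3.70, SE 0.33), Rps19 (2.37, SE 0.25) and Rpl35 (2.26, SE 0.22). The smallest were those of Rpl22 (0.30, SE 0.15, adjusted p = 0.101, but past the threshold at 0.45 without +/+ axonal replicate 4 and at 0.34 without Hnrnpr-/- somatodendritic replicate 1), Rpl15 (0.81, SE 0.20) and Rpl4 (0.94, SE 0.19). Rps27l, Rps19 and Rpl35 reached that mean through the axonal libraries (9.63, 34.9 and 18.002 CPM in somatodendritic against 125, 180 and 86.5 CPM in axonal libraries of +/+), so the limit itself favours increases, and they are given as a description.

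**Figure D2:**
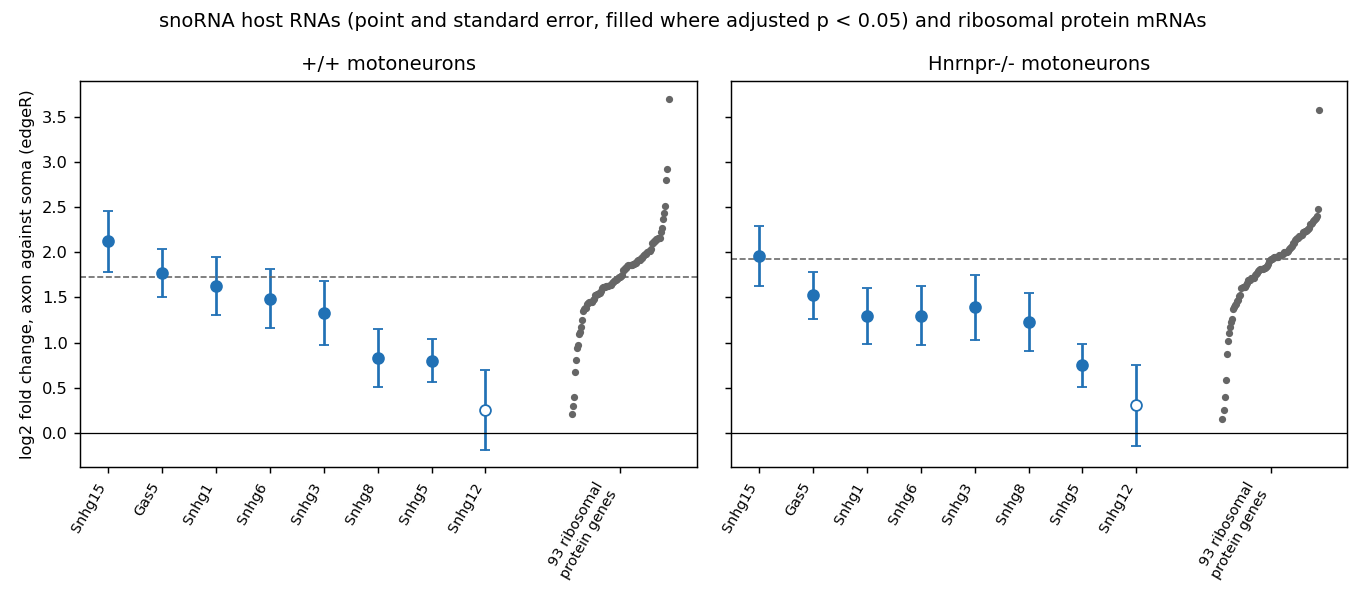
Log2 fold change of axonal against somatodendritic libraries from edgeR, for the 8 snoRNA host RNAs (blue point and SE, filled where the adjusted p is under 0.05) and 93 ribosomal protein genes (grey points in order of size, dashed line at their median). Snhg15 lies above the ribosomal protein median of 1.72 or 1.92 in both genotypes, Gas5 above it in +/+, and the other 6 host RNAs below it in both, and with offsets for exon length Snhg5 and Snhg12 lie below 0 in both and Snhg8 in +/+.

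To compare the classes directly, the model was refitted with each library scaled to its summed ribosomal protein mRNA counts, so that a fold change of the host RNA is one of its ratio to these mRNAs. Relative to ribosomal protein mRNAs, 6 of 8 host RNAs gave no difference between compartments that passed the threshold, and Snhg5 and Snhg12 were lower in axons in both genotypes. The background for lower was 65.3% of tested genes in +/+ and 71.4% in Hnrnpr-/-, with medians of -1.43 and -1.67, against -0.14 and -0.35 for the host RNAs. Called in either direction were 70.5% and 74.7% of tested genes. Among the 1656 tested genes within the exon lengths of the host RNAs the medians were -0.25 and -0.39. The 630 protein-coding genes of this range outside the ribosomal protein genes had -0.21 and -0.31, and its 379 long noncoding RNA genes -1.23 and -1.40. Summed host RNA counts per 1000 ribosomal protein mRNA counts were 11.1 ± 2.45 (SD, n = 4) in +/+ somatodendritic, 10.9 ± 2.46 in +/+ axonal, 10.99 ± 0.550 in Hnrnpr-/- somatodendritic and 8.93 ± 0.734 in Hnrnpr-/- axonal libraries. The Hnrnpr-/- ranges did not overlap, at 10.6 to 11.8 against 7.99 to 9.71, while those of +/+ did.

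Snhg5 stood at 1.78, 1.89, 1.71 and 2.71 counts per 1000 ribosomal protein mRNA counts in +/+ somatodendritic and 1.11, 1.30, 1.10 and 1.31 in +/+ axonal libraries. The groups did not overlap, nor did they in Hnrnpr-/-, at 1.63 to 2.502 against 0.994 to 1.37. Its log2FC relative to ribosomal protein mRNAs was -0.74 (SE 0.21, adjusted p = 0.00579) in +/+ and -0.93 (SE 0.21, adjusted p = 0.00113) in Hnrnpr-/-. Thus the axonal ratio was 59.8% and 52.6% of the somatodendritic ratio.

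Snhg12 stood at 0.488, 0.418, 0.241 and 0.864 in +/+ somatodendritic and 0.178, 0.354, 0.158 and 0.136 in +/+ axonal libraries on the same scale. These overlapped, while in Hnrnpr-/- the somatodendritic range of 0.239 to 0.421 lay above the axonal range of 0.123 to 0.183. The log2FC values were -1.29 (SE 0.41, adjusted p = 0.0104) and -1.32 (SE 0.41, adjusted p = 0.00866). Without +/+ somatodendritic replicate 4 the +/+ value was -0.89 with an adjusted p of 0.0589, and without +/+ axonal replicate 2 it was -1.68 with an adjusted p of 0.0019.

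The other host RNAs ranged from -0.68 (SE 0.35, adjusted p = 0.0935) for Snhg8 to 0.57 (SE 0.26, adjusted p = 0.0661) for Snhg15 in +/+. Snhg15 passed the threshold without +/+ axonal replicate 1 (0.71), without +/+ axonal replicate 2 (0.65) or without +/+ somatodendritic replicate 4 (0.75), and Snhg8 without +/+ somatodendritic replicate 2 (-0.88). Gas5 had 0.24 (SE 0.21) in +/+ and -0.12 (SE 0.21) in Hnrnpr-/-, Snhg1 0.05 and -0.39 (SE 0.25, adjusted p = 0.176), Snhg3 -0.22 and -0.24, and Snhg6 -0.06 and -0.31. Without +/+ axonal replicate 2 the +/+ values were -0.17 for Snhg1, -0.48 for Snhg3 and -0.40 for Snhg6. The Hnrnpr-/- compartments did not overlap for Snhg1, at 0.710 to 0.846 against 0.550 to 0.616 counts per 1000 ribosomal protein mRNA counts. Standard errors of 0.21 to 0.35 on the log2 scale set the precision of these values.

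**Figure D3:**
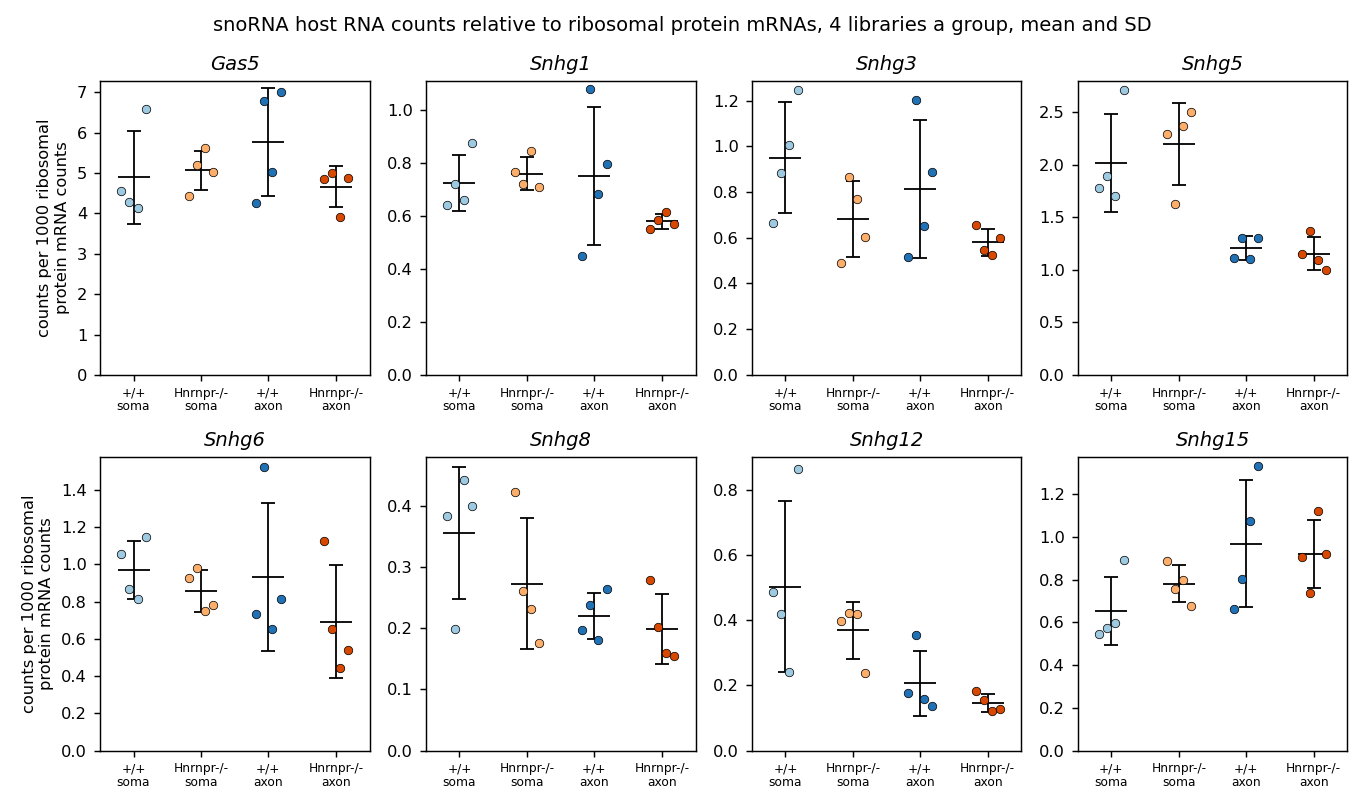
Host RNA counts per 1000 ribosomal protein mRNA counts on linear axes from 0, 1 panel per RNA, with 4 libraries (points), mean and SD (bars) in each group. Snhg5 falls from 1.71 to 2.71 in +/+ somatodendritic to 1.10 to 1.31 in +/+ axonal libraries, while Gas5, at 4.14 to 6.59 and 4.26 to 7.02, overlaps.

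The difference between compartments went with exon length across the whole table. Median log2FC values in +/+ fell from 1.37 for the 502 tested genes with under 500 bases of exon and 1.21 for those of 500 to under 1000 bases to 0.63, 0.11, -0.35 and -0.55 in the longer classes, up to 8000 bases or more. The same classes ran from 1.33 to -0.72 in Hnrnpr-/-. Among the 1656 tested genes within the exon lengths of the host RNAs, 65.9% were higher in +/+ axons, with a median of 1.29. The 630 protein-coding genes of this range outside the ribosomal protein genes had a median of 1.32, with 73.8% higher, and the 379 long noncoding RNA genes of this range had a median of 0.25, with 28.5% higher. The host RNAs, at 1.41 and 87.5%, thus lay near short mRNAs and above the median of short noncoding RNAs, which is a description and was not tested.

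Offsets that remove the trend with exon length within each library, an alternative added after the data were seen, took the median of the host RNAs in +/+ from 1.41 to 0.15 and that of ribosomal protein mRNAs from 1.72 to 0.76. With them 3 of 8 host RNAs passed the threshold in +/+, beside 52.6% of all tested genes, Gas5 (0.55, adjusted p = 0.00957) and Snhg15 (0.90, adjusted p = 0.0107) higher and Snhg12 (-0.98, adjusted p = 0.0346) lower in axons. In Hnrnpr-/- the median went from 1.30 to 0.08 and Snhg12 alone passed, at -0.96 (adjusted p = 0.0405), lower in axons, beside 48.9% of all tested genes. Of the 93 ribosomal protein mRNAs, 86 in +/+ and 85 in Hnrnpr-/- still passed. The part of exon length in the compartment difference of the host RNAs was not tested beyond these values.

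**Figure D4:**
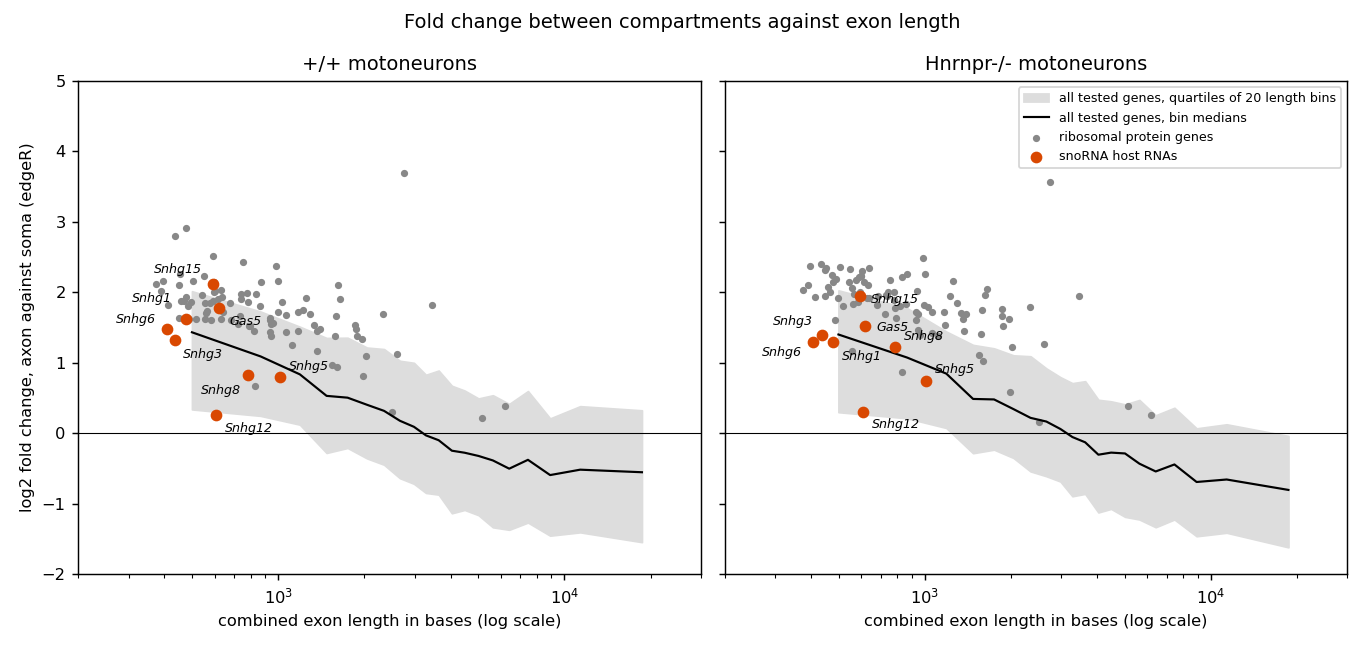
Log2 fold change of axonal against somatodendritic libraries (edgeR) against combined exon length in bases on a log scale, for the host RNAs (orange), 93 ribosomal protein genes (grey points) and all tested genes in 20 length bins (black line for medians, grey band for quartiles). The host RNAs lie around the falling line, at 0.26 to 2.12 in +/+ where the shortest bin has a median of 1.43, while most ribosomal protein genes lie above it.

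The values by TOP start are given as a description, with no test and without matching on exon length. Among tested genes other than the host RNAs and ribosomal protein genes, the 3784 with an annotated TOP start had a median log2FC of -0.05 in +/+, and the 14258 without had 0.09. Their median exon lengths were 3990 and 3340 bases. Among ribosomal protein genes the median was 1.69 for the 69 with and 1.81 for the 24 without an annotated TOP start, among tested long noncoding RNA genes outside the 8 hosts it was -0.26 with and -0.07 without, and among the other noncoding hosts 1.08 for 7 with and 1.74 for 5 without. The shares called higher in +/+ axons were 22.7% and 19.4% of these long noncoding RNA genes and 28.8% and 30.9% of the genes outside the hosts and ribosomal protein genes.

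Of 13 further noncoding snoRNA hosts, 12 were tested, and 8 rose and 2 fell in +/+ axons, with a median of 1.12, beside 30.1% of all tested genes higher and 27.4% lower. The count higher was 6 to 8 with any 1 library left out. Those that rose were Snhg18 (2.17), Snhg20 (1.78), Dancr (1.74), Epb41l4aos (1.34), Snhg16 (1.33), Snhg4 (1.17), Zfas1 (1.08) and Snhg17 (0.76). Snhg11 at -2.09 (adjusted p = 0.0114) and Snhg14 at -1.22 (adjusted p = 0.0226) fell. These are long neuronal transcripts with 6118 and 24206 bases of exon, at 482 and 437 CPM in +/+ somatodendritic libraries, and Snhg14 spans the imprinted snoRNA clusters next to Ube3a. Snhg7 (0.46) and Snhg10 (0.33) did not pass. The +/+ calls of Snhg4 (0.94) and Snhg17 (0.68) were lost without axonal replicate 2. They were lost as well without axonal replicate 3, somatodendritic replicate 1 or somatodendritic replicate 3, and that of Snhg17 without axonal replicate 4. The +/+ call of Snhg14 was lost without axonal replicate 3 (-0.97) or somatodendritic replicate 4 (-1.15). In Hnrnpr-/- 6 rose and the same 2 fell, and Snhg4 (0.88) and Snhg17 (0.45) did not pass. There the call of Snhg14 was lost without axonal replicate 3 (-0.87) or 4 (-0.98) or somatodendritic replicate 1 (-1.13) or 2 (-1.11), its value being -1.88 without axonal replicate 1. The call of Snhg16 was lost without axonal replicate 3 (0.86) or somatodendritic replicate 1 (0.91) or 3 (0.96). Relative to ribosomal protein mRNAs, 5 of the 12 were lower in +/+ axons, beside 65.3% of all tested genes, and none was higher.

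Other genes of the pathway were read from lists of known members, and their counts stand beside 30.1% of all tested genes higher and 27.4% lower in +/+, and 27.5% and 26.8% in Hnrnpr-/-. Of 20 further TOP mRNAs 17 rose and none fell in +/+ axons, among them Fau (1.74), and at the low end Eef1a1 (0.64) and Eif3h (0.60), and 18 rose in Hnrnpr-/-. Of 12 protein-coding snoRNA hosts 4 were higher and 1 was lower in +/+, and 4 to 7 were higher in +/+ with any 1 library left out. In Hnrnpr-/- 6 of 12 were higher and 1 was lower. Here Rack1, a ribosomal scaffold protein, had 1.68, Taf1d 1.53, Eef1b2 0.96 and the helicase Eif4a2 -0.98. The snoRNA particle proteins rose in 8 of 14 in +/+ and 10 of 14 in Hnrnpr-/-, with Nhp2, a core protein of H/ACA particles, at 2.21, the assembly factor Naf1 at 1.89, Ruvbl2 at 0.95 and Nop10 at 0.74. Naf1 stood at 16.1 CPM in +/+ axonal replicate 2 against 1.81 to 2.99 CPM in the other +/+ axonal libraries, and without that library its +/+ log2FC was 0.56 (adjusted p = 0.241). Its call was also lost without +/+ somatodendritic replicate 1 (1.74, adjusted p = 0.0504). Taf1d stood at 52.5 CPM in axonal replicate 2 against 11.1 to 25.6 CPM in the others, and its log2FC was 0.89 (adjusted p = 0.0174) without it.

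Factors of nonsense-mediated decay, which degrades Gas5 RNA, were lower in 6 of 14 and higher in 4 of 14 in +/+ axons, the latter near the share of all tested genes. In Hnrnpr-/- axons 8 of 14 were lower and 3 higher, beside 26.8% and 27.5% of all tested genes. The exon junction protein Magoh (1.57) and Upf3b (1.34) were highest, and Smg5 (-1.22) was among those that fell. Upf3b stood at 94.7 CPM in +/+ axonal replicate 2 against 20.1 to 37.3 CPM in the others, and its log2FC was 0.62 (adjusted p = 0.0206) without it. Of 15 regulators of TOP mRNAs 5 were higher and 5 lower in +/+, both near the shares of all tested genes. They ranged from the translation repressor Eif4ebp1 (4.31) and Cnbp (1.10) to Rptor (-1.50) and the kinase Mtor (-2.08). In Hnrnpr-/- 3 of the 15 were higher and 5 lower. The nuclear long noncoding RNAs were split as well, with Malat1 (2.26) and Neat1 (2.11) among 3 of 7 higher and Rian (-2.80) and Meg3 (-1.67) lower, and in Hnrnpr-/- 1 rose and 2 fell. Without +/+ axonal replicate 2 the +/+ counts were 2 higher and 3 lower, and Malat1, at 2124 CPM in that library against 358 to 947 CPM in the other +/+ axonal libraries, was at 1.70. The Neat1 value in +/+ was 1.49 without axonal replicate 3, and its call in Hnrnpr-/- (1.71) was lost without axonal replicate 3 or without any 1 of somatodendritic replicates 1, 2 and 4. Median exon lengths were 5202, 6459 and 8760 bases in these 3 lists, compared with 599 in the host RNAs.

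Profiles most like those of the host RNAs were sought by the root mean square difference of centred log2 CPM over the 16 libraries, as a description. Closest to the mean of the 8 among 11225 genes with at least 10 CPM were Tma7 (0.14), Chchd1 (0.14), the pseudogene Ndufs5-ps (0.15), Srp14 (0.15) and Ndufs5 (0.16). Of the 100 closest genes 2 encode ribosomal proteins, from 84 such candidates, and none is a long noncoding RNA, from 196 candidates. The closest genes of single members were Ssbp1 for Gas5 (0.16), Hypk for Snhg1 (0.17), the pseudogenes Gm15610 for Snhg3 (0.24) and Gm5814 for Snhg5 (0.17), Cox7b for Snhg6 (0.13), Leng1 for Snhg8 (0.27), LOC118568783 for Snhg12 (0.40) and Tmsb4x for Snhg15 (0.24). Gas5 lay at 0.22 and Snhg12 at 0.84 from the mean profile of ribosomal protein mRNAs, the ends of the range.

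The snoRNAs themselves are not polyadenylated, and their rows held few reads, 18 over all libraries for Snora24 in Snhg8 up to 2247 for the 8 in Gas5. Per 100 host counts, snoRNA rows in Gas5 held 15.1 ± 3.29 counts (SD, n = 4) in +/+ somatodendritic and 11.6 ± 5.04 in +/+ axonal libraries, and in Snhg1 33.3 ± 12.8 and 21.1 ± 6.63. The ranges overlapped for both hosts. In +/+ the means were also lower in axons for Snhg3 (22.1 and 17.8) and Snhg5 (6.66 and 3.75). The same held for Snhg12 (11.5 and 7.81) and Snhg15 (17.2 and 10.6). Means were higher in +/+ axons for Snhg6, with 0 and 1.17 ± 1.06, and Snhg8, with 2.09 ± 1.88 and 2.31 ± 2.51. In Hnrnpr-/- Gas5, Snhg1, Snhg3, Snhg15 and Snhg6 (2.06 ± 1.87 and 0.379 ± 0.486) were lower in axons. Snhg5 stood at 4.95 in both Hnrnpr-/- groups. Snhg8 (1.41 and 2.53) and Snhg12 (10.05 ± 8.73 and 14.03 ± 4.87) were higher in Hnrnpr-/- axons. With 4 libraries against 4 the smallest p of an exact permutation test is 0.0286, which no single one of 16 comparisons could carry past an adjusted threshold of 0.05, so the ranges are given without a call. Reads from a free snoRNA and from an unspliced host RNA cannot be told apart in these rows.

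The study asked which transcripts change on loss of hnRNP R in each compartment. None of the 8 host RNAs passed the threshold in somatodendritic libraries, on a background of 0.00501% of tested genes, or in axonal libraries, on a background of 0.01%. At an unadjusted p under 0.05 there were also 0 of 8 in edgeR in each compartment, where 0.601% and 3.88% of tested genes passed, and DESeq2 called 0 of 8. Every RNA overlapped between genotypes in both compartments, as did nearly all tested genes. The share of tested genes without overlap was 1.58% in somatodendritic and 0.606% in axonal libraries.

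In axons all 8 estimates lay below 0, from -0.02 (SE 0.32) for Snhg15 to -0.50 (SE 0.44) for Snhg12, where 46.9% of tested genes and 52 of 93 ribosomal protein genes lay below 0. Mean Gas5 levels (± SD, n = 4) were 62.6 ± 17.4 CPM for +/+ axons and 51.4 ± 6.70 CPM for Hnrnpr-/- axons (log2FC = -0.28, SE 0.25, edgeR adjusted p = 1). Snhg6 and Snhg3 had -0.46 (SE 0.32) and -0.46 (SE 0.35), and Snhg1 -0.35 (SE 0.31). Without +/+ axonal replicate 2 the 8 estimates ranged from -0.19 for Snhg3 to 0.0046 for Snhg5, and their median went from -0.32 to -0.10. Axonal levels of Snhg5 (13.1 ± 3.07 against 12.7 ± 1.59 CPM) and Snhg15 (10.6 ± 4.33 against 10.48 ± 3.60 CPM) differed least.

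In the somatodendritic compartment 6 of 8 estimates lay below 0, with Snhg12 (-0.55, SE 0.45), Snhg3 (-0.53, SE 0.36) and Snhg8 (-0.53, SE 0.33) the lowest and Snhg15 (0.14, SE 0.33) the highest. Without +/+ somatodendritic replicate 4 the median of the 8 went from -0.16 to 0.05. The difference of the genotype effect between compartments was called for none of the 8 or any other tested gene in edgeR, a background of 0%, while 0 of 8 and 1.33% of tested genes had an unadjusted p under 0.05, and DESeq2 with default settings called 1 gene. Its estimates ranged from -0.33 (SE 0.44) for Snhg1 to 0.39 (SE 0.45) for Snhg8, and that of Snhg1 was -0.095 without +/+ axonal replicate 2.

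**Figure D5:**
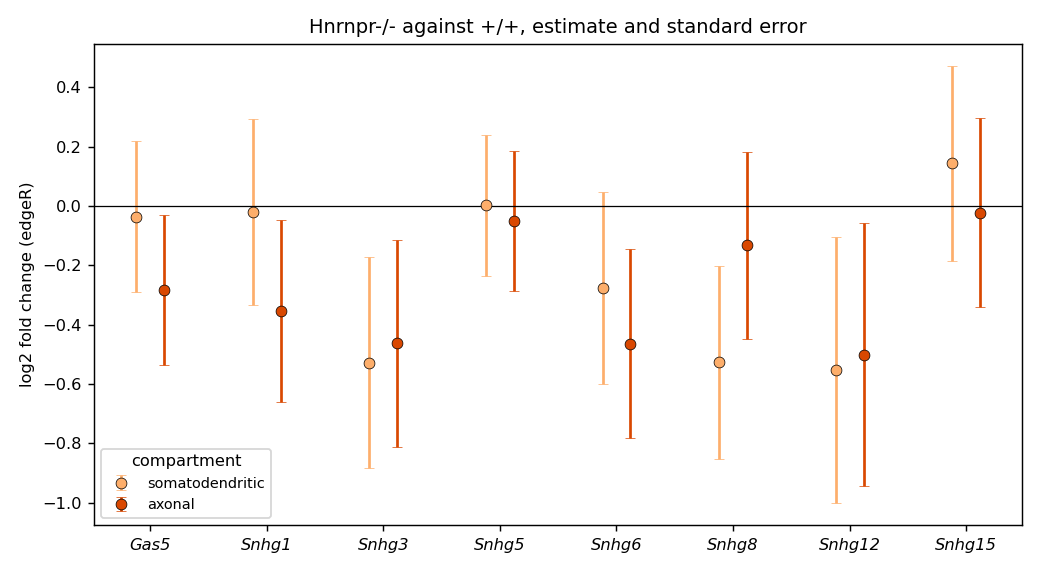
Log2 fold change of Hnrnpr-/- against +/+ libraries from edgeR with its SE, for the 8 host RNAs in the somatodendritic (light) and axonal (dark) compartment. All axonal estimates lie between -0.50 and -0.02, and none passes the threshold.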

How the data were processed

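PolyA RNA was amplified with SMART-Seq v4 from 16 libraries, 4 per genotype and compartment. The authors trimmed reads, aligned them to GRCm39 with STAR (2.7.2b) and counted exonic reads per RefSeq gene with featureCounts (1.6.4), sharing reads that mapped to or overlapped several genes, so the deposited values are estimated counts that need not be whole. The study states reverse-stranded counting, while the kit does not mark strand, so reads from overlapping genes on opposite strands cannot be told apart. The series' own tests used DESeq2 (1.24.0).

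Here counts were rounded to whole numbers. edgeR (4.0.16, with limma 3.58.1, in R 4.3.3) filtered genes by expression, scaled libraries by TMM and fitted 1 mean per group over all 16 libraries, with the quasi-likelihood test and Benjamini-Hochberg adjustment over 19964 genes and a threshold of 0.05. A second fit scaled each library to its summed ribosomal protein counts. CPM refers to tested genes. The procedure was also run on simulated data with known fold changes, the outcome of which is not given here. DESeq2 (1.42.0), other scalings and filters, replicate blocks and each library left out in turn were alternatives. Offsets for exon length, the block by genotype and replicate number together and leaving out libraries for the other lists, were added after the data were seen.

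All 8 host RNAs are named. Further names follow a rule: every tested noncoding host, the 3 highest and 3 lowest ribosomal protein genes with at least 50 CPM on average in +/+, the 2 highest and 2 lowest called genes of each other list, and the nearest profiles. Some genes that the rule names are not reported here. Members and lists were chosen with earlier results of these data known. Lists of cell type markers came from general knowledge. Transcript starts were read from GENCODE, matched by gene to 37127 of 46320 rows.

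Replicate numbers, whose meaning the labels do not give, were taken to pair the compartments: deviations from the group mean of same-numbered somatodendritic and axonal libraries correlated at 0.105 to 0.232 in all 4 pairs of +/+ and at 0.170 to 0.484 in all 4 pairs of Hnrnpr-/-. Between genotypes 2 of 4 pairs exceeded 0.1 in either compartment, so genotypes were not treated as paired. P-values measure the spread between these libraries. Counting error alone sets a limit of 3 counts for a gene without a read.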

Additional observations from a re-analysis of the deposited data

Results flagged for a closer look

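In 32 sets of 4 values, 1 per host RNA and group, the highest or lowest library was set against the gap to its nearest neighbour, a check that chance passes in about 1 of 20 sets. Somatodendritic replicate 4 of +/+ stood apart from its group for 3 RNAs, with Snhg1 at 3.57 CPM (2.34 to 2.44 CPM in the others), Snhg5 at 11.1 CPM (6.13 to 6.76 CPM) and Snhg15 at 3.66 CPM (1.89 to 2.15 CPM). Axonal replicate 1 of Hnrnpr-/- stood apart for Snhg6, at 10.7 CPM against 5.97 to 6.66 CPM.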

How the results depend on the processing

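Calls of the host RNAs were repeated under 11 alternatives and with each of 16 libraries left out. Some alternatives did not give every comparison. The block by genotype and replicate number together gave none between genotypes within a compartment. The fit of only the compared groups gave no difference of the genotype effect between compartments. The ratio to ribosomal protein mRNAs was refitted under some alternatives only. Offsets for exon length, chosen after seeing the data, moved the number of host RNAs called between compartments from 7 to 3 in +/+ and from 7 to 1 in Hnrnpr-/-, where 52.6% and 48.9% of all tested genes were called. They also turned the sign of Snhg5 (-0.21 in +/+, -0.30 in Hnrnpr-/-), Snhg12 (-0.98, -0.96) and Snhg8 in +/+ (-0.16) between compartments, and of Gas5 (0.12) and Snhg1 (0.13) between genotypes in the somatodendritic and Snhg15 (0.062) in the axonal compartment. Since the offsets remove the trend with exon length, these values rest on that construction. Between genotypes, estimates near 0 crossed it: Snhg5 in the somatodendritic compartment with RLE size factors (-0.0089), both DESeq2 settings (-0.0068 with defaults, -0.0067 with shrinkage) and the replicate block (-0.0049), Snhg1 there with library totals (0.0054), and Snhg15 in axons without an expression filter (0.0017). For none of these was the cause tested. With genotype and replicate number together as a replicate block, a pairing of the compartments that rests on their correlation, 6 host RNAs were called in +/+ and 7 in Hnrnpr-/-, Snhg8 lost its call in +/+ and Snhg1 relative to ribosomal protein mRNAs in +/+ was at -0.0073. It changed no other call of a host RNA among the comparisons it gave. Without a filter on expression (0.0757) or with only the compared groups (0.0749), the adjusted p of Snhg8 in +/+ also missed the threshold.

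With 1 library left out, 6 to 7 host RNAs were called between compartments in +/+ and 7 in Hnrnpr-/-, 2 to 3 and 2 relative to ribosomal protein mRNAs, and 0 between genotypes. Signs turned within these ranges. Between compartments in +/+, Snhg12 ran from -0.15 to 0.78, and relative to ribosomal protein mRNAs Snhg1 from -0.17 to 0.24 and Snhg6 from -0.40 to 0.079. Between genotypes in the somatodendritic compartment Gas5 ran from -0.13 to 0.22, Snhg1 from -0.12 to 0.16 and Snhg5 from -0.091 to 0.26, and in axons Snhg5 from -0.14 to 0.10 and Snhg15 from -0.24 to 0.28. For the difference of the genotype effect between compartments, Snhg3 ran from -0.16 to 0.34, Snhg5 from -0.30 to 0.085, Snhg6 from -0.42 to 0.18, Snhg12 from -0.43 to 0.46 and Snhg15 from -0.43 to 0.12. Library totals without TMM factors moved the median of all tested genes from 0.07 to 0.22 in +/+ and that of the host RNAs from 1.41 to 1.55.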

Other observations

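Snord47, whose row lies within the Gas5 locus, had 172 counts in +/+ axonal replicate 2 and 0 to 13.5 counts in the other 15 libraries. These libraries were made from polyA RNA, and what the reads stem from was not tested.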
